A study of Rattus norvegicus with 6 samples.

Results

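The genes described here are 10 regulators of fat cell formation and genes of lipid storage, Cebpb, Cebpd, Cebpa, Pparg, Lpl, Cd36, Fabp4, Dgat2, Plin2 and Adipoq. They were chosen by name, and each has 1 entry among the 33300 genes of the deposited table. Fat cell formation runs through a short chain of transcription factors. C/EBPβ and C/EBPδ act early, and C/EBPα and PPARγ act late and hold the fat cell state, with PPARγ the factor without which fat cells do not form. The cells that result take up fatty acids through lipoprotein lipase and CD36, carry them on FABP4, join them to triglyceride through DGAT2, store them in droplets coated by perilipins and secrete adiponectin. Tendon progenitor cells can be driven along this route in culture, and fat in tendon is a known feature of degenerating tissue.

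RNA was sequenced from rat tendon stem/progenitor cells after 7 days of culture, from 3 libraries grown in F12 medium (Control) and 3 grown in F12 with 500 uM N-acetyl-L-cysteine (NAC), a thiol antioxidant and source of cysteine. The labels describe all 6 as tendon-derived mesenchymal stem cells under tenogenic differentiation and give no strain, age or sex. Whether the 3 libraries of a group are separate cultures or animals is not stated, so the spread behind each p-value may be technical. The deposited columns of the Control libraries carry only the letter N and were assigned by elimination, since the others are named NAC. No fat-inducing mixture is named in the labels for either group.

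Levels are FPKM, the fragments of a gene divided by its length in kilobases and by the depth that the deposited values imply. Behind them stood 12487215 to 14941949 reads per library. The implied depth was 1.02 to 1.04 times these reads in Control and 0.909 to 0.925 times in NAC. Of 18 measured tendon markers 17 were expressed at a mean of at least 1 FPKM. Among them Scx stood at 12.5 ± 1.30 FPKM in Control (SD, n = 3). With NAC 10 of the 17 were higher, where 6.08% of all tested genes were. Those of lowest adjusted p were the matrix genes Lum, Col1a1, Bgn and Col12a1 (log2 fold changes of 0.95, 1.00, 0.55 and 0.86). Voom called 12 of the 17 higher, and Scx was not one of these. The summed level of the tendon markers was 13938 to 14305 FPKM in Control and 21076 to 22225 FPKM in NAC. Its part in the results on the 10 genes was not tested. Ptprc, the leukocyte marker, and Cdh5, an endothelial cadherin, had no reads in any library, 9 of 15 macrophage markers and 7 of 13 endothelial markers had 3 reads or fewer in every library, and 5 of 10 skeletal muscle markers did too. Of those expressed, none of 3 macrophage markers and none of 3 skeletal muscle markers passed the test (unadjusted p under 0.05 in 0 and 0, voom 0 and 0), and 1 of 2 endothelial markers was higher (Flt1, 0.55; unadjusted 1 higher, voom 1 higher). Of 7 pericyte and smooth muscle markers 1 was lower (Myh11, -0.33), with 1 higher and 3 lower at an unadjusted p under 0.05 and 2 lower by voom (Myh11 and Acta2). Their median was -0.20, and the summed level of this list was 865 to 1065 FPKM in Control and 702 to 835 FPKM in NAC, whose part in the results on the 10 genes was not tested. The Flt1 call did not hold on dropping 1 library other than Control 2 (0.50 to 0.56), nor the Myh11 call on dropping 1 library other than NAC 3 (-0.35 to -0.27). Both calls were also lost with the replicate number as a block, and that of Flt1 without the filter on low values. Control 2 stood apart on the second principal component (20.6% of the variance, at 21.8 against -10.3 to 4.26 for the other libraries). Values without it are given for Cebpb, Cebpd, Cebpa, Lpl and Plin2.

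RefSeq held a promoter window for Cebpb, Cebpa, Pparg, Cd36, Plin2 and Adipoq (Cebpd, Lpl, Fabp4 and Dgat2 had no entry). The windows of 3 are shown because they belong to the most contrasting regulators of the set, Cebpb as an abundant factor, Cebpa as the one that rose with NAC and Pparg as the one with almost no reads. Each line is the 250 bases before the RefSeq start, 5′ to 3′ on the gene's strand (GRCr8), with matches to TATAAA, to the C/EBP core TTGCG and to the CRE core TGACG in capitals, on either strand.
Cebpb (chr3:176816755-176817004, plus strand): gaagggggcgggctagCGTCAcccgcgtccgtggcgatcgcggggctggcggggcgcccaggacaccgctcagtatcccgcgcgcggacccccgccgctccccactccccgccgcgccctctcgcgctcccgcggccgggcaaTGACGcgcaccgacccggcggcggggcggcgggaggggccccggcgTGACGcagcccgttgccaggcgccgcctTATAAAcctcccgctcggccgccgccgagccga
Cebpa (chr1:96896334-96896583, plus strand): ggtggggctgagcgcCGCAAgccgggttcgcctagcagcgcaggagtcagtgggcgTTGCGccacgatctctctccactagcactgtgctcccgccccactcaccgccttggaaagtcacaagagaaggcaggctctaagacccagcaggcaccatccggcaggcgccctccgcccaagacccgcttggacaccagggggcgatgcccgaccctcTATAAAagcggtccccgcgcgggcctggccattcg
Pparg (chr4:150096808-150097057, plus strand): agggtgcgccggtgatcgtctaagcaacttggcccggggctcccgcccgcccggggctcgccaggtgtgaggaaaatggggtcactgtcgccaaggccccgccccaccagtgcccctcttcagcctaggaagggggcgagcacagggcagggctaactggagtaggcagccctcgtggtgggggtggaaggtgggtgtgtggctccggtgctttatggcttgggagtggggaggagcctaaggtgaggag

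The Cebpb and Cebpa windows both hold TATAAA close to the start, from 33 to 28 and from 35 to 30 bases before it, and the Pparg window holds none of the 3 motifs. Among the windows not shown, that of Cd36, a gene with almost no reads, holds TATAAA and a CRE core on the opposite strand. They lie 175 to 170 and 148 to 144 bases before the start. The windows of Plin2, an abundant gene, and Adipoq, a gene with almost no reads, hold none of the 3 motifs. Whether the motifs go with the levels was not tested in these 6 windows. TATAAA is in 13.1% of 27457 rat promoter windows of this length, on either strand. The Cebpb window has 3 CRE cores, which lie 234 to 230, 107 to 103 and 61 to 57 bases before the start, a motif found in 19.0% of all windows. The Cebpa window has 2 C/EBP cores, which lie 235 to 231 and 194 to 190 bases before the start, a motif found in 15.5% of all windows. Searches of the 6 windows on both strands for the longer C/EBP motif TTGCNNAA (9.20% of all windows) and the full CRE TGACGTCA (1.70%) found no match. The cores were added after these had found none. CCAAT, in 34.3% of all windows, was also searched for and was found only in the Adipoq window. It lies there 69 to 65 bases before the start on the opposite strand and 42 to 38 on the gene's strand.

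Levels of the 10 genes split the set sharply. Lpl, Cebpd, Cebpb and Plin2 were abundant, Dgat2, Cebpa and Fabp4 were low to moderate, and Pparg, Cd36 and Adipoq were at or near the detection limit in both groups. In Control the order of mean FPKM was Lpl, Cebpd, Cebpb, Plin2, Dgat2, Cebpa, Fabp4, Pparg, Cd36 and Adipoq. Neighbours in this order did not overlap between libraries, apart from Cd36 and Adipoq. Pparg and Cd36 had 1 read each in Control 2, where their FPKM differ through gene length alone. With NAC the order was the same for the first 8 genes, and the values of Pparg overlapped those of Adipoq, and those of Adipoq overlapped those of Cd36.

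**Figure D1:**
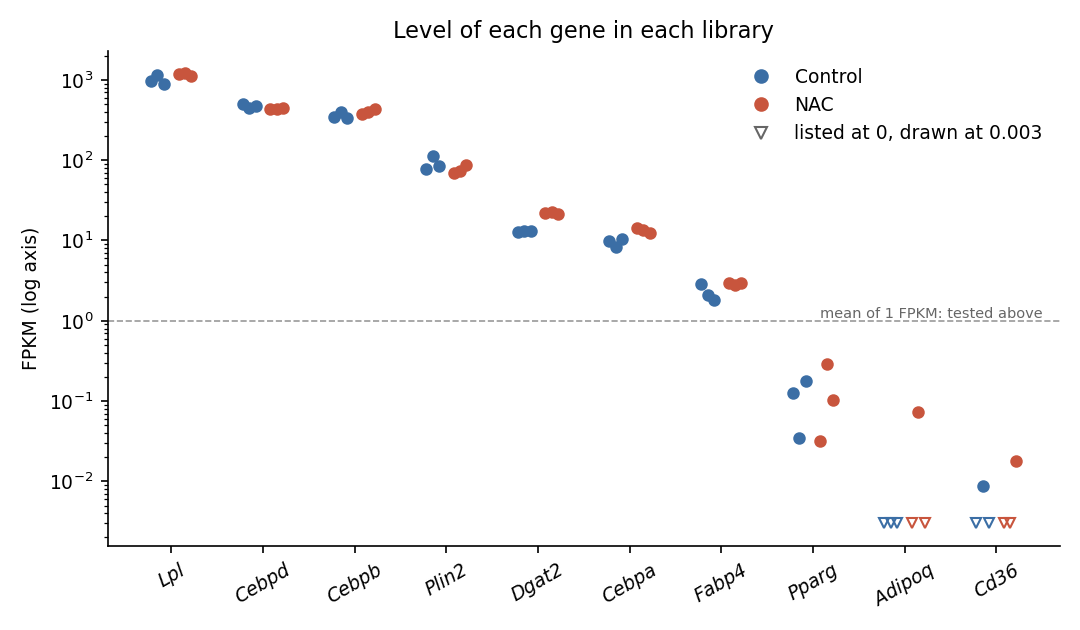
FPKM of each of the 10 genes in each library, on a log axis, with Control in blue and NAC in red; values of 0 are drawn as open triangles at the bottom. Lpl lies near 1000 FPKM, Dgat2 is the gene whose groups stand clearest apart, and Pparg, Adipoq and Cd36 lie below the dashed line at 1 FPKM, above which genes were tested.

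Of the 10 genes 7 reached a mean of 1 FPKM over the 6 libraries and were tested, and 2 of these 7, Dgat2 and Cebpa, rose with NAC. None fell (limma on log2(FPKM + 1), Benjamini-Hochberg adjusted p under 0.05 over 12733 genes). Over all tested genes 6.08% rose and 2.72% fell. At an unadjusted p under 0.05 there were 3 higher and 0 lower genes among the 7. The share of all tested genes at this unadjusted threshold is not given. Such counts, here and for the lists, therefore cannot be set against all genes. Voom on the recovered reads called 2 of the 7 higher and 0 lower, where it called 8.23% of all tested genes higher and 4.08% lower. Without Control 2 the counts were 3 higher and 0 lower, where 6.75% of all tested genes were higher and 2.71% lower. The median log2 fold change of the 7 genes was 0.23, and that of all tested genes was -0.0063. With quantile normalization the corresponding medians were -0.015 and -0.021, and with library totals 0.057 and -0.16. Fold changes below are on the log2(FPKM + 1) scale, which understates the change of low genes.

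**Figure D2:**
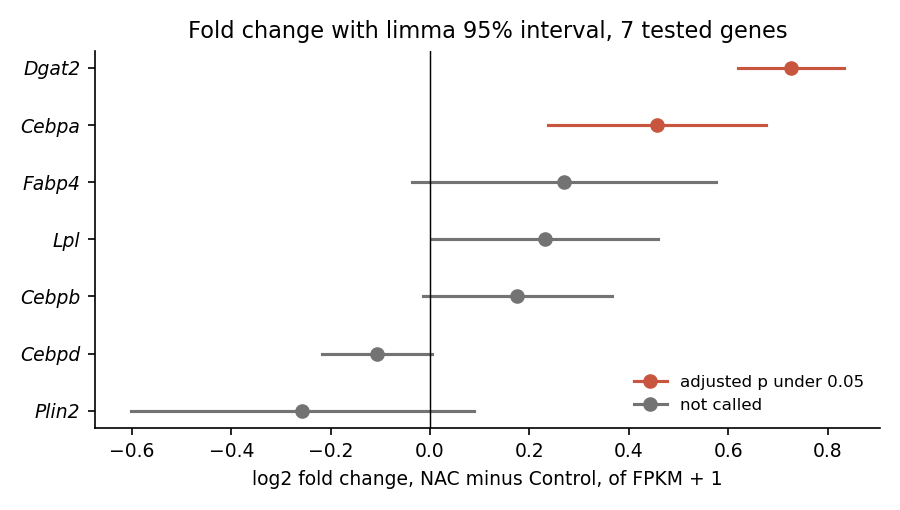
Log2 fold change (NAC minus Control, of FPKM + 1) with its 95% interval from limma for the 7 tested genes; red marks an adjusted p under 0.05. The intervals of Dgat2 (0.62 to 0.83) and Cebpa (0.24 to 0.68) lie above 0, and that of Plin2 is the widest (-0.60 to 0.088).

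The early factors were among the most abundant transcripts, and neither passed the test as deposited. Cebpd (ENSRNOG00000050869, chromosome 11, 89008008 to 89009146), which encodes C/EBPδ, stood at 495.9, 444 and 475 FPKM in Control 1 to 3 and at 434, 436 and 443 FPKM in NAC 1 to 3. Every NAC value lay just below every Control value, as in 15.9% of all tested genes. The log2 fold change was -0.11 ± 0.0464 (SE, limma adjusted p = 0.202), with a 95% interval of the fold from 0.860 to 1.003, and it was -0.15 ± 0.0342 without Control 2 (adjusted p = 0.0522). Cebpb (ENSRNOG00000057347, chromosome 3, 164424515 to 164425910), which encodes C/EBPβ, stood at 340, 395 and 331 FPKM in Control and at 378, 394 and 431 FPKM in NAC. Control 2 lay inside the NAC range, whereas Control 1 and 3 lay below it. Its log2 fold change was 0.18 ± 0.0801 (SE, limma adjusted p = 0.220), with an interval of the fold from 0.990 to 1.29, and it was 0.25 ± 0.0602 without Control 2 (adjusted p = 0.0563). Gene coordinates are as deposited, and no source used here gives a rat build for them.

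The level of Cebpd over that of Cebpb, both in FPKM, was 1.46, 1.12 and 1.44 in Control 1 to 3 and 1.15, 1.10 and 1.03 in NAC 1 to 3. Control 2 again lay within the NAC range of this ratio, whose Control mean was 1.34 with it and 1.45 without it, against 1.09 in NAC. The choice of scaling changed the reading of the early factors. Scaling to library totals moved the median of all tested genes to -0.16, and Cebpd then passed the test as lower (-0.28, adjusted p = 0.0111, range over all settings 0.0111 to 0.427). With quantile normalization Cebpd also passed (-0.34, adjusted p = 0.0144), and the value of Cebpb turned to -0.015.

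Of the late factors Cebpa rose and Pparg had almost no reads. Cebpa (ENSRNOG00000010918, chromosome 1, 91363492 to 91366164), which encodes C/EBPα, a factor that also halts cell division, stood at 9.92, 8.23 and 10.3 FPKM in Control and at 14.2, 13.6 and 12.3 FPKM in NAC. All NAC values lay above all Control values, as in 16.7% of all tested genes, with Control 2 the lowest library. The log2 fold change was 0.46 ± 0.0923 (SE, limma adjusted p = 0.0311), a 1.37-fold rise with an interval from 1.18 to 1.60. Without Control 2 it was 0.37 ± 0.0722 (limma adjusted p = 0.0355). These values rest on 280 to 514 reads per library. The call did not hold once Control 1 (0.49), Control 3 (0.51), NAC 1 (0.42), NAC 2 (0.44) or NAC 3 (0.51) was left out. It was also lost with library totals (0.30), without a filter on low values (limma adjusted p = 0.0623) and without the trend in the variance (limma adjusted p = 0.0511). The same held with the replicate number as a block (limma adjusted p = 0.0721). The adjusted p ran from 0.00891 to 0.107 over all settings.

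Pparg (ENSRNOG00000008839, chromosome 4, 147274107 to 147399380) had 4, 1 and 6 reads in Control 1 to 3 and 1, 9 and 3 reads in NAC 1 to 3, or 24 reads in all. These are levels of 0.127, 0.0342 and 0.178 FPKM in Control and 0.0321, 0.289 and 0.104 FPKM in NAC, where 3 reads were worth 0.0891 to 0.104 FPKM. The groups overlapped over their whole range. With 0.113 ± 0.0729 FPKM in Control and 0.142 ± 0.132 FPKM in NAC (SD, n = 3), no difference was detectable at this depth (exact permutation test on log2(FPKM + 1), two-sided, p = 0.9, where 3 against 3 cannot go below 0.1). Mean Cebpa was 83.9 times mean Pparg in Control in FPKM, and mean Cebpb 3145 times. Both ratios are rough, since Pparg had 11 reads over the 3 Control libraries and an SD of 64.5% of its mean.

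Lpl was by far the most abundant gene of the set. It encodes lipoprotein lipase, a secreted enzyme that frees fatty acids from circulating triglyceride and that fat cell precursors, muscle and macrophages also make. Lpl (ENSRNOG00000012181, chromosome 16, 22537056 to 22561496) stood at 975, 1149 and 878 FPKM in Control and at 1179.9, 1209.9 and 1116 FPKM in NAC, and its mean ranked 33 among all genes in the table. Control 2 lay within the NAC range, and Control 1 and 3 lay below it. The log2 fold change was 0.23 ± 0.0954 (SE, limma adjusted p = 0.182), with an interval of the fold from 1.003 to 1.37. Without Control 2 it was 0.34 ± 0.0587 and passed the test (adjusted p = 0.0263, range over all settings 0.0263 to 0.699), and with quantile normalization it turned to -0.053.

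The other genes of uptake and transport were scarce. Cd36 (ENSRNOG00000040108, chromosome 4, 14001761 to 14249718), a fatty acid receptor of fat cells, macrophages and small vessels, had 0, 1 and 0 reads in Control and 0, 0 and 2 in NAC. All 6 libraries lay at or below the floor of 3 reads, so no fold is given. Fabp4 (ENSRNOG00000010805, chromosome 2, 93792601 to 93797305), the fatty acid carrier of fat cells, which macrophages and endothelium also express, stood at 2.83, 2.12 and 1.84 FPKM in Control and 2.98, 2.76 and 2.97 FPKM in NAC. Control 1 lay within the NAC range, and each value rests on 18 to 27 reads. Its log2 fold change was 0.27 ± 0.129 (SE, limma adjusted p = 0.239), with an interval of the fold from 0.975 to 1.49.

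Dgat2 gave the clearest difference of the set. It encodes one of a pair of enzymes that carry out the last step of triglyceride synthesis. Dgat2 (ENSRNOG00000016573, chromosome 1, 164113459 to 164143818) stood at 12.9, 13.0 and 12.9 FPKM in Control and at 21.9, 22.9 and 21.4 FPKM in NAC. The groups were well separated. The SD of the Control libraries was 0.310% of their mean, which is below the counting error of values that rest on 560, 521 and 599 reads. The log2 fold change was 0.73 ± 0.0450 (SE, limma adjusted p = 5.20e-04), a 1.65-fold rise with an interval from 1.54 to 1.78. It passed the test under all 16 alternative settings (0.56 to 0.77). Dgat1, the other enzyme of the pair, which shares no close sequence with it and was singled out after its values were seen, stood at 21.9 ± 1.71 FPKM in Control and 19.8 ± 0.825 FPKM in NAC (SD, n = 3), at a limma adjusted p = 0.247. The level of Dgat2 over that of Dgat1 thus went from 0.594 ± 0.0429 to 1.11 ± 0.0122 (SD, n = 3), with Dgat1 the more abundant in each Control library and Dgat2 in each NAC library.

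Plin2 and Adipoq stand for the stored droplet and the finished fat cell. Plin2 (ENSRNOG00000007060, chromosome 5, 104984414 to 105010857), the droplet coat protein of most cell types, stood at 77.8, 112 and 84.8 FPKM in Control and 68.6, 72.9 and 86.1 FPKM in NAC. Control 2 was 1.38 times the mean of Control 1 and 3, and the groups overlapped. The log2 fold change was -0.26 ± 0.145 (SE, limma adjusted p = 0.311), and -0.10 ± 0.101 without Control 2 (adjusted p = 0.558). Adipoq (ENSRNOG00000001821, chromosome 11, 81330293 to 81344488), which encodes adiponectin, had 2 reads in NAC 2 and none in the other 5 libraries.

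**Figure D3:**
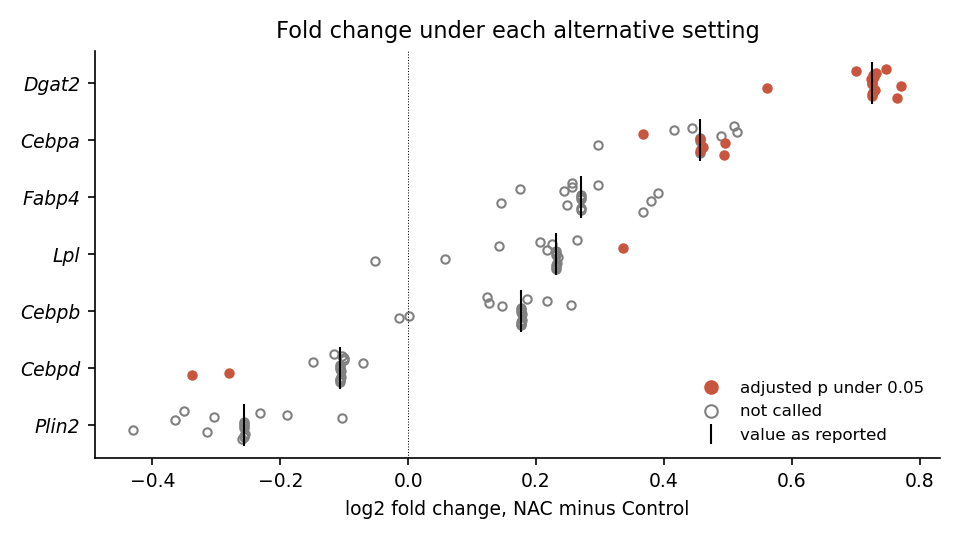
Log2 fold change of the 7 tested genes under each of the alternative settings (points, red where the adjusted p was under 0.05) beside the value as reported (black bar). Dgat2 stays between 0.56 and 0.77 and is red throughout, Cebpa stays above 0 but is red in a minority of settings, and Cebpb and Lpl fall below 0 in 1 setting each.

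The markers of mature fat cells were low as a whole. Of 18 measured ones 7 had 3 reads or fewer in every library, Pck1, Aqp7 and Mrap had no reads at all, and 6 reached a mean of 1 FPKM. Of these 6, 1 rose and none fell (unadjusted p under 0.05 in 3 and 0, voom 1 and 0). Cfd, the complement protease adipsin, rose from 1.14 ± 0.641 to 3.48 ± 0.585 FPKM (SD, n = 3), a log2 change of 1.098 ± 0.225 (SE, limma adjusted p = 0.0324). The Cfd call did not hold once Control 3 (1.07), NAC 1 (1.01), NAC 2 (1.20) or NAC 3 (1.09) was left out, nor without the filter on low values. The summed level of the 18 markers was 40.1 to 54.4 FPKM in Control and 61.1 to 68.04 FPKM in NAC, most of it from Sncg (34.5 ± 6.17 and 45.1 ± 4.24 FPKM; singled out after its values were seen), which is also a neuronal gene. In bulk RNA fewer cells of a type and less RNA per cell cannot be told apart. Of 9 expressed markers of fat cell precursors none rose and 1 fell (unadjusted p under 0.05 in 2 and 1, voom 0 and 1), which was Icam1, from 77.2 ± 2.20 to 62.7 ± 1.05 FPKM (-0.29 ± 0.0374, SE, limma adjusted p = 0.00704).

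Beyond the 10 genes, 120 of 150 other genes on 9 lists of this pathway were expressed at a mean of 1 FPKM or more, of which 7 rose and 7 fell. These are 5.83% in each direction, beside 6.08% higher and 2.72% lower among all tested genes. Their median log2 fold change was -0.026. Without Control 2 the counts were 12 and 8, where 6.75% of all tested genes were higher and 2.71% lower. With library totals they were 4 and 48, where 3.67% of all tested genes were higher and 29.2% lower, and the median of the 120 genes was -0.19 beside -0.16 over all tested genes. Of the 14 called genes 4 kept their call under all 16 alternative settings (G0s2, Mgll, Angptl4 and Slc27a3), and 9 lost it when 1 library was left out.

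**Figure D4:**
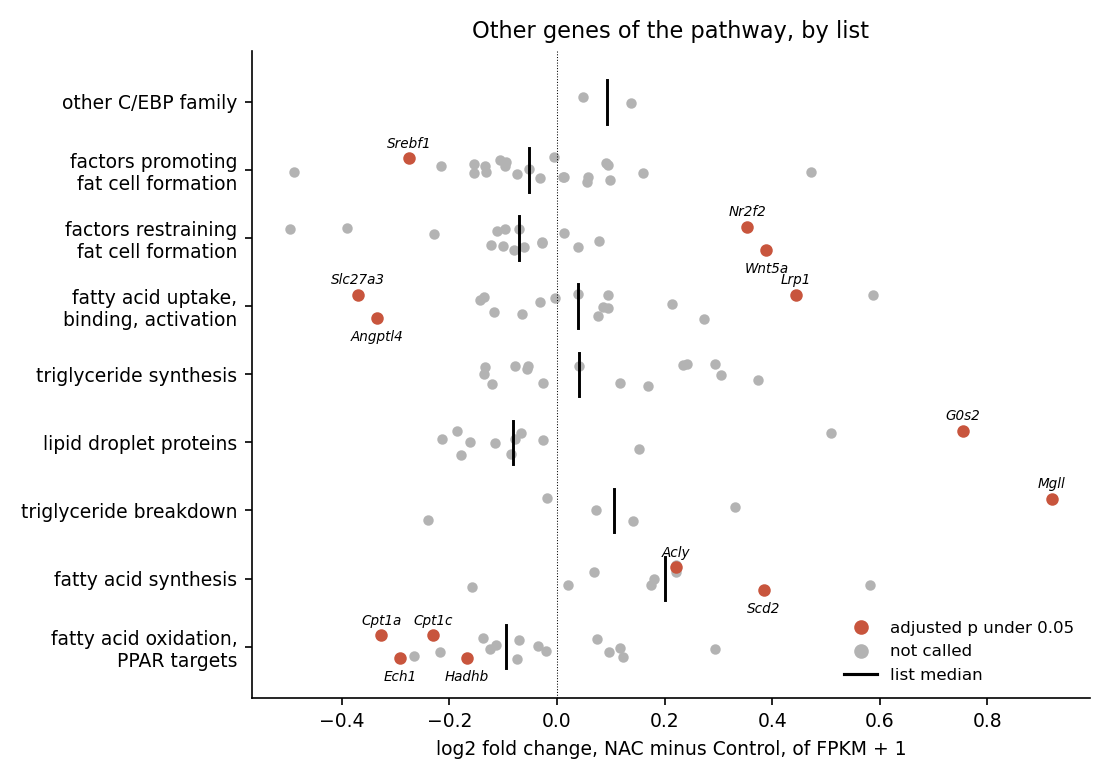
Log2 fold change (NAC minus Control, of FPKM + 1) of each expressed gene on 9 pathway lists, without the 10 genes themselves; red marks an adjusted p under 0.05 and the black bar is the list median. Mgll and G0s2 lie farthest to the right, and the called genes of fatty acid oxidation all lie to the left.

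Among the transcription factors 1 of 23 expressed factors that promote fat cell formation fell and none rose (unadjusted p under 0.05 in 2 and 0, voom 2 and 0). Srebf1, a regulator of fatty acid synthesis genes, fell from 8.89 ± 0.121 to 7.18 ± 0.282 FPKM (SD, n = 3), a log2 change of -0.27 ± 0.0542 (SE, limma adjusted p = 0.0296). The Srebf1 call did not hold once Control 1 (-0.27), Control 3 (-0.27), NAC 1 (-0.30), NAC 2 (-0.26) or NAC 3 (-0.26) was left out. It was also lost without the filter on low values and with the replicate number as a block. PPARδ and PPARα, the relatives of PPARγ, were both above the level for testing. Ppard stood at 8.74 ± 0.428 FPKM in Control and 9.43 ± 0.411 FPKM in NAC, and Ppara at 2.05 ± 0.115 and 1.85 ± 0.0195 FPKM, neither called and both singled out after their values were seen. Of the other C/EBP genes Cebpg, a widely expressed partner, stood at 16.5 ± 1.31 and 18.2 ± 0.385 FPKM (limma adjusted p = 0.227), and Ddit3, which encodes CHOP, an inhibitory partner, at 26.8 ± 2.001 and 27.7 ± 1.28 FPKM (adjusted p = 0.677). Of 17 expressed genes that restrain fat cell formation 2 rose and none fell (unadjusted p under 0.05 in 2 and 3, voom 2 and 0). Wnt5a, a Wnt ligand, rose from 20.2 ± 1.80 to 26.8 ± 1.15 FPKM (adjusted p = 0.0232), a call that did not hold once NAC 1 (0.42), NAC 2 (0.38) or NAC 3 (0.36) was left out, nor with library totals (0.22). Nr2f2, the nuclear receptor COUP-TFII, rose from 43.1 ± 4.48 to 55.2 ± 2.75 FPKM (adjusted p = 0.0398). The Nr2f2 call did not hold once Control 1 (0.32), Control 3 (0.30), NAC 1 (0.39), NAC 2 (0.35) or NAC 3 (0.32) was left out, nor with library totals (0.18). It was also lost without the filter on low values, without the trend and with the replicate number as a block.

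Of 17 expressed genes of fatty acid uptake, binding and activation 1 rose and 2 fell (unadjusted p under 0.05 in 3 and 3, voom 2 and 2). Of all tested genes 6.08% rose and 2.72% fell, and voom called 8.23% higher and 4.08% lower. Angptl4, a secreted inhibitor of lipoprotein lipase and a target of PPARs, stood at 408, 399 and 371 FPKM in Control and 307, 315 and 312 FPKM in NAC, so that it fell by 0.33 on the log2 scale (SE 0.0434, limma adjusted p = 0.00758). Lrp1, a receptor that takes up lipoprotein remnants among many other ligands, rose from 520.1 ± 20.5 to 708 ± 29.8 FPKM (0.44 ± 0.0472, adjusted p = 0.00365), and lost its call with quantile normalization (0.23). Slc27a3, of the fatty acid transport protein family, fell from 16.3 ± 0.308 to 12.4 ± 0.391 FPKM (-0.37 ± 0.0466, adjusted p = 0.00687). Gpihbp1, the anchor that holds lipoprotein lipase on capillaries, had 1 read in all (singled out after its value was seen).

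In the steps around Dgat2 the other enzymes of triglyceride synthesis gave no call. None of 15 expressed ones rose or fell (limma; unadjusted p under 0.05 in 3 higher and 1 lower, voom 1 higher and 0 lower). Gpam, which starts the pathway, stood at 35.1 ± 2.52 FPKM in Control and 43.3 ± 4.39 FPKM in NAC (SD, n = 3), at an adjusted p = 0.0842. It passed without NAC 3 (0.38) and with voom on the recovered reads (adjusted p = 0.0312, range over all settings 0.0312 to 0.254). Agpat1, the next enzyme, stood at 33.1 ± 1.19 and 31.9 ± 1.55 FPKM (adjusted p = 0.542), and passed as lower with library totals (-0.22).

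Among 12 expressed lipid droplet proteins 1 rose and none fell (unadjusted p under 0.05 in 3 and 4, voom 2 and 0), and among 6 expressed genes of triglyceride breakdown 1 rose and none fell (unadjusted p under 0.05 in 2 and 0, voom 1 and 0). G0s2, which inhibits the main triglyceride lipase, stood at 41.05, 38.6 and 33.4 FPKM in Control and 67.6, 60.9 and 63.7 FPKM in NAC, a rise of 0.75 ± 0.0806 (log2, SE, limma adjusted p = 0.00365). Mgll, the monoglyceride lipase of the last step of breakdown, stood at 1.93, 1.39 and 2.02 FPKM in Control and 4.52, 4.08 and 4.11 FPKM in NAC, a rise of 0.92 ± 0.115 (adjusted p = 0.00662). All NAC values of both genes lay well above all Control values. Pnpla2, the triglyceride lipase that G0s2 inhibits, is listed at 0 in every library (singled out after its values were seen). It is a gene of most cell types, and why it is listed at 0 was not tested, so a 0 in the table need not mean that a gene was silent.

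Called genes of fatty acid synthesis were higher and those of oxidation lower, a difference between lists that was not tested itself. Each of these calls was lost in 3 to 8 of the 16 alternative settings. Over all tested genes 6.08% were higher and 2.72% lower, and 8.23% and 4.08% by voom. The unadjusted counts have no such share to be set against. Of 10 expressed genes of synthesis 2 rose and none fell (unadjusted p under 0.05 in 7 and 0, voom 5 and 0), with a median of 0.20. Scd2, a fatty acid desaturase, rose from 57.6 ± 3.09 to 75.6 ± 4.58 FPKM (SD, n = 3), at a limma adjusted p = 0.0139, a call that did not hold once Control 1 (0.36), Control 3 (0.36), NAC 1 (0.37) or NAC 2 (0.35) was left out. Acly, which supplies acetyl-CoA for the pathway, rose from 30.3 ± 0.573 to 35.5 ± 0.134 FPKM (adjusted p = 0.0165). The Acly call did not hold once Control 1 (0.21), Control 3 (0.23), NAC 1 (0.22), NAC 2 (0.22) or NAC 3 (0.22) was left out. It was also lost with library totals (0.052) and with the replicate number as a block.

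Of 18 expressed genes of oxidation and other PPAR targets 4 fell and none rose (unadjusted p under 0.05 in 6 and 2, voom 4 and 0), with a median of -0.094. Cpt1a, which lets fatty acids into mitochondria, fell from 33.1 ± 0.435 to 26.2 ± 1.43 FPKM (SD, n = 3), at a limma adjusted p = 0.0125, a call that did not hold once Control 3 (-0.32), NAC 1 (-0.30) or NAC 2 (-0.31) was left out. Ech1, an auxiliary enzyme of the cycle, fell from 71.9 ± 1.92 to 58.6 ± 2.87 FPKM (adjusted p = 0.0147), a call that did not hold once Control 3 (-0.30), NAC 1 (-0.27) or NAC 2 (-0.27) was left out. Cpt1c, a relative of Cpt1a, went from 22.9 ± 0.926 to 19.4 ± 0.745 FPKM (adjusted p = 0.0400) and Hadhb, a subunit of the trifunctional protein, from 60.7 ± 0.377 to 54.01 ± 1.52 FPKM (adjusted p = 0.0393). The Cpt1c call did not hold once Control 1 (-0.20), Control 3 (-0.23), NAC 1 (-0.24), NAC 2 (-0.25) or NAC 3 (-0.20) was left out. It was also lost without the filter on low values, without the trend and with the replicate number as a block. The Hadhb call needed all 6 libraries, with values from -0.19 (NAC 3 left out) to -0.15 (NAC 2 left out) on dropping 1 of them. It was also lost without the trend and with the replicate number as a block.

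The 3 tested genes whose values over the 6 libraries were closest to those of Dgat2 were Pdia4, a disulfide isomerase of the endoplasmic reticulum, Nid2, a basement membrane nidogen, and Mt-co2, a mitochondrially encoded subunit of cytochrome c oxidase. Closeness was the mean absolute difference of log2(FPKM + 1) after each gene was centred on its own mean, which was 0.0285, 0.0288 and 0.0308. Pdia4 went from 128 ± 3.86 to 206 ± 6.66 FPKM (SD, n = 3), Nid2 from 129 ± 5.0 to 208 ± 8.50 FPKM and Mt-co2 from 1585 ± 34.5 to 2552 ± 45.6 FPKM. All 3 genes, like Dgat2, were measured in the same 6 libraries, and the measure is a description over them.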

How the data were processed

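The authors deposited 1 table of FPKM values per gene and library, with gene lengths and coordinates. The submitters' processing notes name GRCm38 and mm10, which are mouse builds, while the identifiers are rat Ensembl genes; no aligner, counter or strand setting is given in the sources used here, and reads of an antisense partner may therefore be included. Per the labels' protocols, total RNA (RNeasy) went into SMARTer mRNA-Seq libraries. Columns N1 to N3 were read as Control 1 to 3 by elimination, as the labels define no N.

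Deposited FPKM values, once multiplied by gene length, fell on whole numbers of reads (tolerance 0.01) in 100% of cases, and these reads were recovered. The total that the deposited FPKM imply was 1.02 to 1.04 times the sum of these reads in Control and 0.909 to 0.925 times in NAC, so this factor cannot be told apart from the groups; rescaling to the sum of reads is the setting called library totals. A floor of 3 reads per library was used, which reflects counting error alone. limma 3.58.1 (R 4.3.3; trended eBayes, two-sided, no term but group) tested log2(FPKM + 1) of the 12733 genes with a mean of 1 FPKM or more, adjusted together by Benjamini-Hochberg. On simulated data for NAC against Control (12636 genes) it called 3, 24, 35 and 47 of 50 genes changed 1.25-, 1.5-, 2- and 4-fold, with 5 false calls. The simulation added counting error to the observed spread, which already holds it. It also changed fewer genes than were called in the data, so the rates here may differ. Symbols were matched by name (243 genes) or an older name (3), and 6 had no entry. Named were all 10 genes and, per list, up to 4 called genes by adjusted p or else the 2 most abundant. The 3 genes closest to the one of lowest adjusted p were named too. Others are said to have been singled out, except for Scx, Ptprc, Cdh5, Acta2, Pck1, Aqp7 and Mrap, which were also named outside this rule. Genes and lists were chosen with earlier results of these data known. Promoter sequences are from RefSeq (GRCr8). Python 3.11.15, numpy 2.4.6, pandas 2.3.3 and matplotlib 3.10.9 were used.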

Additional observations from a re-analysis of the deposited data

How the results depend on the processing

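Settings tried were a pseudocount of 0.1, no filter, a mean of at least 5 FPKM, 3 other scalings, voom on the recovered reads, eBayes without trend or with robust estimation, a replicate block and leaving out each library. Among the 10 genes, 2 were higher and none lower as reported; 1 was higher with no filter, no trend, library totals or the replicate block, and 1 was lower with quantile normalization and with library totals. Leaving out 1 library gave 1 to 3 higher. Over all genes, 774 rose and 346 fell as reported, with 467 and 3722 by library totals, 520 lower by voom, 207 lower with no filter, 206 lower without trend, and 466 and 110 with the replicate block; leave-outs gave 263 to 859 higher and 50 to 345 lower. Pathway genes were 4 higher and 48 lower with library totals and 13 higher by voom; leave-outs gave 3 to 12 higher and 2 to 8 lower. The cause of these shifts was not tested. Leave-outs use fewer samples, and the counts of higher genes were 859 without Control 2 and 263 to 457 without any other library. Library totals shift the median of all genes. Signs turned for Cebpb (-0.015) and Lpl (-0.053) with quantile normalization, for Ddit3 (-0.12), Cebpg (-0.028), Cd14 (-0.054), Tnnt3 (-0.075) and Acta1 (-0.10) with library totals, and on leaving out 1 library for Ddit3 (-0.0054 to 0.099), Acta1 (-0.063 to 0.14) and Lyz2 (-0.22 to 0.042). Same-numbered libraries did not deviate together (correlations of 0.0627, 0.0589 and -0.0502), so the replicate number was not treated as a pairing. At this depth the values of Pparg, Cd36 and Adipoq allow no comparison of the groups.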
